A study of Mus musculus with 6 samples.

Results

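The Src, Syk and Tec families are the tyrosine kinases that act first below the antigen, Fc and other immune receptors of blood cells. They were examined in CD11c+ against CD11c- T cells through 9 genes, Lyn, Fgr, Fyn, Src, Syk, Btk, Tec, Txk and Csk. The members were every probe set whose only annotated gene was one of these names. This gave 10 probe sets of 7 genes, among 45141 probe sets and 17097 genes measured in all. Fgr, Fyn and Src had 2 probe sets each and Syk, Btk, Tec and Txk 1 each. No probe set here names Lyn or Csk alone, so these 2 genes were not analysed here. Blood was taken from 3 female C57BL/6 mice of 6 to 8 weeks, labelled A, C and D, kept free of specific pathogens. Per the labels 6 such females had received 3 mg of Depo-Provera, a progestin, under the skin 5 days earlier, and no sample is named as untreated, so both fractions of a mouse share its treatment. From each mouse, effector memory T cells, sorted as CD3+ CD62L- CD44high, gave 1 CD11c+ and 1 CD11c- sample of 300 cells each, with 1 array for each of the 6 samples.

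In a Src family kinase, the kinase domain is held shut by the phosphorylated tail, which Csk phosphorylates. When a receptor is engaged, Src family kinases phosphorylate the ITAM motifs of its signalling chains. Syk, or its relative Zap70 in T and NK cells, then docks on these motifs. Tec family kinases act a step later, on phospholipase C gamma. Lymphocytes of the T lineage are known for Lck, Fyn, Zap70 and Txk, and myeloid cells and B cells for Lyn, Syk and Btk, with Fgr found mainly in myeloid cells.

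Syk and Fgr were higher in CD11c+ than in CD11c- cells, with log2 fold changes of 3.98 and 4.08 against CD11c- values that were not above background, and were the 2 members that passed the test. Btk and Tec had values of the same sign that missed it, while Txk, Src and Fyn had log2 fold changes below 0 that also missed it and that for Txk and Fyn turned above 0 when arrays were centred on the CD3 chain genes. The deposited values are log2 signals, which were compared with limma (the mouse as a block, p-values adjusted by Benjamini-Hochberg over all probe sets, threshold 0.05). A mean log2 value of 5.87 or less was taken as not above background. Of the 10 member probe sets, 2 passed as higher in CD11c+ cells and 0 as lower (5 and 2 at an unadjusted p under 0.05). At that unadjusted p, 2833 of all 45141 probe sets were higher and 3254 lower. Over all probe sets 0.957% were called higher and 0.168% lower, or 432 and 76 probe sets, against 22412 and 232 when arrays were centred on the CD3 chain genes. The median log2 fold change was 1.79 over the 7 member genes and -0.0864 over all genes. The values of the CD11c+ and CD11c- arrays did not overlap for 6 member probe sets, 5 with the CD11c+ arrays on top (6.4% of all probe sets) and 1 with the CD11c- arrays on top (12.5% of all probe sets). Without mouse A, 0 probe sets of any gene were called (2796 higher and 2767 lower at an unadjusted p under 0.05), so a call lost there is not particular to a kinase. In these bulk samples fewer cells of a type and less RNA per cell cannot be told apart.

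**Figure D1:**
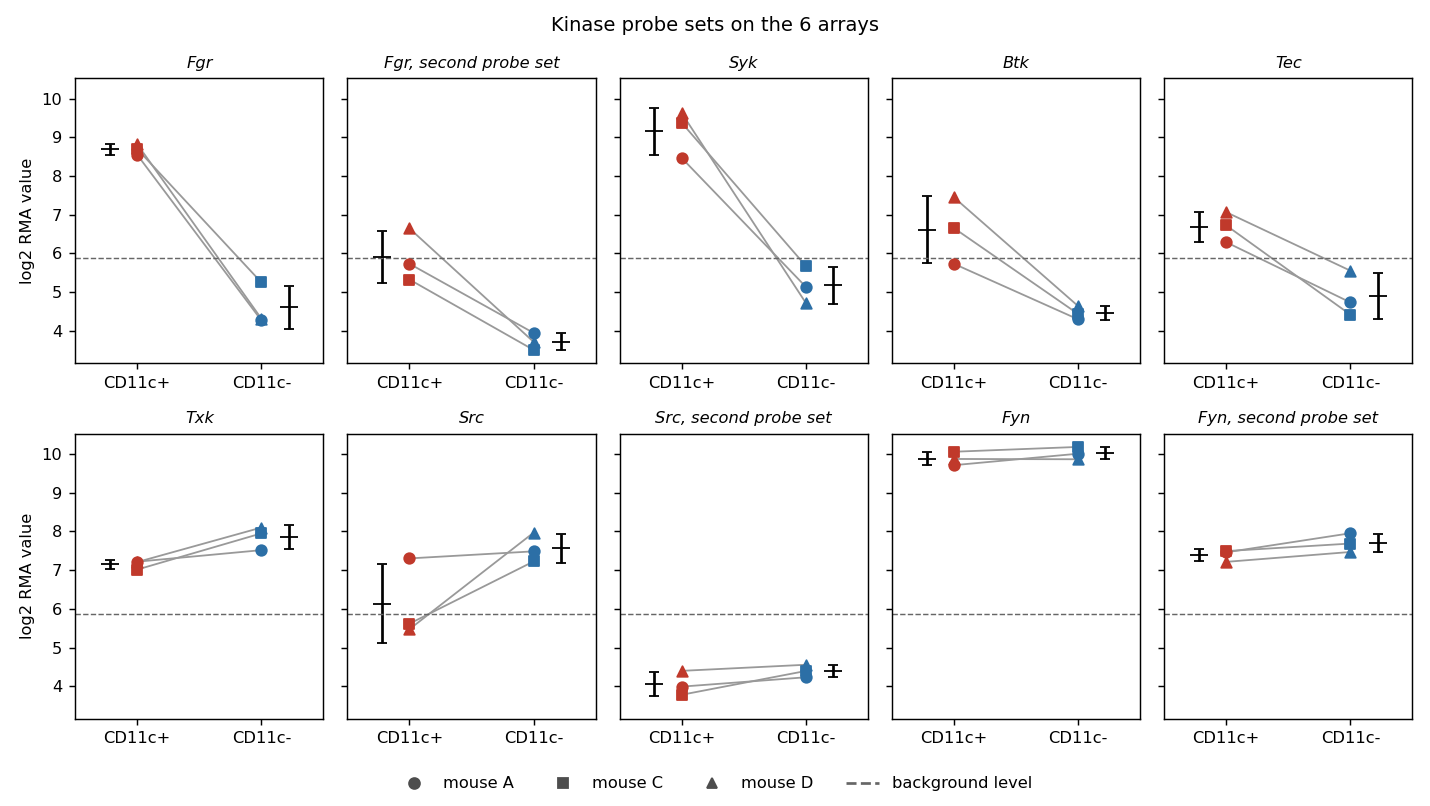
Log2 RMA value (vertical axis) of each of the 10 kinase probe sets in CD11c+ (red) and CD11c- (blue) cells, with lines joining the samples of a mouse, bars for mean ± SD of 3 mice and a dashed line marking the background, 5.87. The brighter probe set of Fgr and that of Syk lie between 8.46 and 9.62 in CD11c+ cells and under the dashed line in CD11c- cells, and both probe sets of Fyn lie above the line in all samples.

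Fgr, the myeloid member of the Src family, had log2 values of 8.55, 8.70 and 8.82 in CD11c+ cells of mice A, C and D, against 4.27, 5.25 and 4.31 in CD11c- cells of the same mice. The lowest CD11c+ array lay far above the highest CD11c- array. Fgr thus averaged 8.69 ± 0.14 in CD11c+ and 4.61 ± 0.55 in CD11c- cells (SD over 3 mice). Its log2 fold change of 4.08 (standard error 0.25, 95% interval 3.41 to 4.75, adjusted p = 0.0126 from limma) was positive in 3 of 3 mice. In CD11c- cells the mean of Fgr lay under the background level, and taken against that level the difference was at least 7.06-fold. Leaving out mouse A ended the call of Fgr (adjusted p = 0.157), at a log2 fold change of 3.98.

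The other probe set of Fgr was dimmer. It gave 5.73, 5.32 and 6.64 in CD11c+ cells of mice A, C and D, against 3.94, 3.50 and 3.71 in CD11c- cells. Only the CD11c+ array of mouse D was above the background level, yet the fractions did not overlap. Its log2 fold change of 2.18 missed the threshold (adjusted p = 0.0634) and passed without the mouse block (adjusted p = 0.0355). It missed the threshold in limma without mouse A (adjusted p = 0.236) or mouse C (adjusted p = 0.141). The same held under median centring (adjusted p = 0.077) and cyclic loess (adjusted p = 0.0781). Both probe sets of Fgr thus gave positive differences in every mouse, of unequal size.

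Syk, the kinase that docks on phosphorylated ITAMs in myeloid cells, B cells and basophils, had 8.46, 9.37 and 9.62 in CD11c+ cells of mice A, C and D, against 5.13, 5.67 and 4.72 in CD11c- cells. The fractions were again wide apart. The mean was 9.15 ± 0.61 in CD11c+ and 5.17 ± 0.48 in CD11c- cells (SD over 3 mice). Syk differed by 3.98 on the log2 scale (standard error 0.34, 95% interval 3.06 to 4.90, adjusted p = 0.0271 from limma). No CD11c- array was above background, and the difference was at least 9.75-fold against that level. Leaving out mouse A ended the call of Syk (adjusted p = 0.161, log2 fold change 4.30), and so did leaving out mouse C (adjusted p = 0.0777, log2 fold change 4.12).

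Upstream sequence is shown for Fgr and Syk, which carried the calls, and for Tec and Txk, neighbours with opposite signs. Each run holds the 250 bases before the RefSeq start site farthest upstream, read 5′ to 3′ on the strand of the gene, in build GRCm38.p6. Capitals mark the letters GGAAGT, the core bound by many ETS factors. GAGGAA, the box bound by the myeloid and B cell ETS factor PU.1, was searched too. Both strands were searched and the letters were chosen after the windows had been seen. The motifs share the letters GGAA, so a single run of bases can hold both.
Fgr, plus strand, chr4:132973845-132974094: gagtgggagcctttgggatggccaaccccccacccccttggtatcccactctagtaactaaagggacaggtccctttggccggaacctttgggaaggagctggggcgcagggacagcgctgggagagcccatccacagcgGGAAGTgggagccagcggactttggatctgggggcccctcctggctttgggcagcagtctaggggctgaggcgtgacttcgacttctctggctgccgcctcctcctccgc
Syk, plus strand, chr13:52583187-52583436: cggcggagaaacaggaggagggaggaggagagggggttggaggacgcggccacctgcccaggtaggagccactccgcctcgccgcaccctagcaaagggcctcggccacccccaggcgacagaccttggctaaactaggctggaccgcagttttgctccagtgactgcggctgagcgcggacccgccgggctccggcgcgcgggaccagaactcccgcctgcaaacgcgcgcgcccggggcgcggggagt
Tec, minus strand, chr5:72868449-72868698: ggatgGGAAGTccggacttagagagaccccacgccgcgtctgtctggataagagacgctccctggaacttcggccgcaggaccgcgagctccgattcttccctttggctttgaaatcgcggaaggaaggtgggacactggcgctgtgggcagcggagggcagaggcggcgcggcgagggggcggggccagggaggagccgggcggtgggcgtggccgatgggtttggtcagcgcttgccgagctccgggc
Txk, minus strand, chr5:72752778-72753027: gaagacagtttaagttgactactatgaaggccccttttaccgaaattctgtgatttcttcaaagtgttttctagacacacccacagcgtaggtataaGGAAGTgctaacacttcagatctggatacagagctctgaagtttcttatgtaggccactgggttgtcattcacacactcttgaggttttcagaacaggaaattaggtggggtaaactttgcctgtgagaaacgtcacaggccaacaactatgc
GGAAGT begins 110 bases before the start of Fgr, 245 before that of Tec and 153 before that of Txk, on the strand of the gene each time, and these letters are not in the window of Syk. They are in 19.7% of 32851 windows of 250 bases, counted over every listed start site and not only the one farthest upstream. GAGGAA is in 23.3% of all windows and in none of the 4 shown. Among member windows not shown, it is in that of Src, on the opposite strand, and in that of Csk, but not in those of Fyn and Btk. The letters GGAAGT are thus found upstream of genes of either sign. Bases G and C made up 64.4% of the window of Fgr, 71.6% of that of Syk, 68.4% of that of Tec and 42.8% of that of Txk.

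Tec and Txk are 2 members of the Tec family that stand next to each other on chromosome 5, with no annotated gene between them, and on the same strand. Tec, which is expressed in many blood cells, had 6.29, 6.72 and 7.06 in CD11c+ cells of mice A, C and D, against 4.73, 4.42 and 5.55 in CD11c- cells. Its lowest CD11c+ array was above its highest CD11c- array. The log2 fold change was 1.79 (95% interval 1.22 to 2.36, adjusted p = 0.0537 from limma), which narrowly missed the threshold. The mean of Tec in CD11c- cells lay under the background level, against which the difference was at least 1.77-fold. Tec passed with a random mouse block (adjusted p = 0.043), a trended variance (adjusted p = 0.0399) or a fit to brighter probe sets alone (adjusted p = 0.031). It also passed in a limma fit to the mean of each gene's probe sets (adjusted p = 0.0208). Tec passed too when arrays were centred on the CD3 chain genes, with 22412 of all probe sets called higher. It missed the threshold in limma with no block (adjusted p = 0.0657), under median centring (adjusted p = 0.0699) and under cyclic loess (adjusted p = 0.0734). Leaving out mouse A (adjusted p = 0.228), C (adjusted p = 0.128) or D (adjusted p = 0.0806) gave no call of Tec either.

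Txk, also called Rlk and found mainly in T cells, had 7.22, 7.02 and 7.21 in CD11c+ cells of mice A, C and D, against 7.52, 7.95 and 8.10 in CD11c- cells. These fractions did not overlap either, with the CD11c- arrays on top and all 6 values above background. The log2 fold change was -0.71 (95% interval -1.20 to -0.21, adjusted p = 0.218 from limma), below 0 in 3 of 3 mice. It was 0.0303 under this CD3 centring. Within each mouse, the difference between fractions was 1.56, 2.31 and 1.51 for Tec in mice A, C and D, and -0.30, -0.94 and -0.89 for Txk. The neighbouring genes thus had opposite signs in every mouse, and the difference between them was not tested.

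Btk, the Tec family kinase of B cells and myeloid cells, had 5.73, 6.65 and 7.45 in CD11c+ cells of mice A, C and D, against 4.29, 4.43 and 4.64 in CD11c- cells. The CD11c+ arrays were spread widely, and that of mouse A was under the background level. For Btk the log2 fold change of 2.15 (95% interval 1.37 to 2.94, adjusted p = 0.071 from limma) missed the threshold, with a difference of at least 1.67-fold against background. Btk passed with a random mouse block (adjusted p = 0.0471), a trended variance (adjusted p = 0.0377) or a fit to brighter probe sets alone (adjusted p = 0.0371). It also passed in a limma fit to the mean of each gene's probe sets (adjusted p = 0.0315). Btk passed too when arrays were centred on the CD3 chain genes, with 22412 of all probe sets called higher. It missed the threshold in limma with no block (adjusted p = 0.0692), under median centring (adjusted p = 0.0815) and under cyclic loess (adjusted p = 0.0861). Leaving out mouse A (adjusted p = 0.16), C (adjusted p = 0.193) or D (adjusted p = 0.0928) gave no call of Btk either.

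Src, the widely expressed kinase that names its family, had 7.30, 5.62 and 5.48 in CD11c+ cells of mice A, C and D, against 7.49, 7.23 and 7.97 in CD11c- cells. In mouse A the 2 fractions were nearly alike, and in mice C and D the CD11c+ array was under the background level. The log2 fold change was -1.43 (95% interval -2.68 to -0.17, adjusted p = 0.313 from limma), or -2.05 without mouse A and -0.90 without mouse D. The other probe set of Src was not above background in either fraction. Its log2 fold change was -0.34 (adjusted p = 0.47).

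Fyn, the Src family kinase that acts beside Lck at the T cell receptor, was high in both fractions. It had 9.71, 10.06 and 9.87 in CD11c+ cells of mice A, C and D, against 10.01, 10.19 and 9.87 in CD11c- cells. The fractions overlapped. This gave a log2 fold change of -0.14 (95% interval -0.50 to 0.23, adjusted p = 0.733 from limma), an interval that leaves out changes of the size measured for Fgr and Syk. Its other probe set averaged 7.39 ± 0.15 in CD11c+ and 7.70 ± 0.24 in CD11c- cells (SD over 3 mice), with a difference of -0.31 on the log2 scale (adjusted p = 0.447). Under CD3 centring the 2 values of Fyn were 0.60 and 0.42.

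Among the CD11c+ arrays, the 4 member genes with log2 fold changes above 0 had the same order of mice in the probe set that stands for each. Fgr, Syk, Btk and Tec were lowest in mouse A and highest in mouse D, while the dimmer probe set of Fgr was lowest in mouse C. The order from mouse A to mouse D was found for 20.6% of all probe sets and for 36.6% of the 432 that were called higher. Src ran the other way, with its highest CD11c+ value in mouse A. The summed linear signal of 8 basophil and mast cell markers was also lowest in the CD11c+ sample of mouse A, at 2737 against 4498 in that of mouse D. Sums of NK cell markers (1358 against 1641) and conventional dendritic cell markers (712 against 1672) had the same lowest and highest mice. Those of monocyte and platelet markers were lowest in mouse A too. The sum of 8 B cell markers was highest in mouse A, at 1301 against 594 in mouse D. Sums of T cell, plasmacytoid dendritic cell and neutrophil markers were also highest in mouse A. The part of these cell types in the order was not tested.

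Other kinases related to the members were measured through Blk, Yes1 and Frk of the Src family, Zap70 of the Syk family, Bmx of the Tec family and Matk, the homologue of Csk. None of the 6 passed the test in limma, with 1 higher and 1 lower at an unadjusted p under 0.05. Of all 45141 probe sets, 2833 were higher and 3254 lower at that unadjusted p. Blk, which is known from B cells and some γδ T cells, had 7.94, 8.80 and 6.18 in CD11c+ cells of mice A, C and D, against 8.68, 9.79 and 8.29 in CD11c- cells. The difference was below 0 in 3 of 3 mice, although the groups overlapped (log2 fold change -1.28, adjusted p = 0.19). Zap70, the T cell counterpart of Syk, had 7.27, 6.70 and 6.22 in CD11c+ cells against 6.77, 7.29 and 8.11 in CD11c- cells. Its log2 fold change was -0.66 (95% interval -1.94 to 0.62, adjusted p = 0.648), or 0.0769 under CD3 centring, and mouse A had the opposite sign to mice C and D. Bmx was not above background in either fraction (log2 fold change 0.82, adjusted p = 0.302), and neither were Matk (0.27, adjusted p = 0.81), Yes1 (-0.10, adjusted p = 0.801) and Frk (-0.0748, adjusted p = 0.834).

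**Figure D2:**
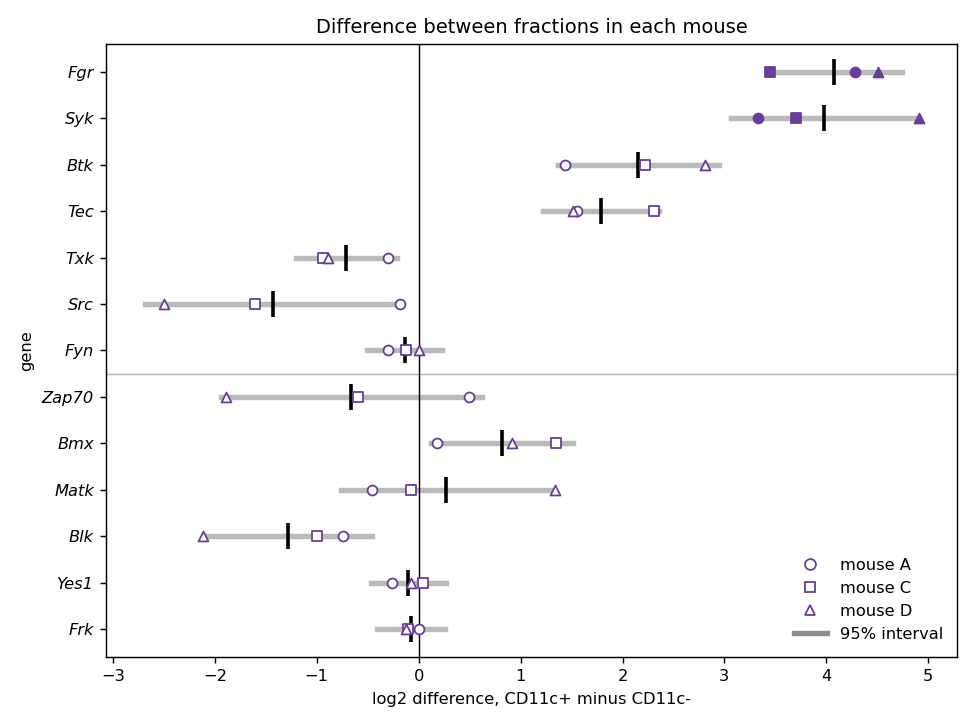
Log2 difference between CD11c+ and CD11c- cells (horizontal axis) of the 7 members (above the line) and 6 related kinases (below it), with 1 symbol per mouse, a black tick at the log2 fold change of limma, a grey bar for its 95% interval and filled symbols for genes past the threshold. Fgr and Syk lie between 3.33 and 4.91 in all mice, Btk and Tec between 1.43 and 2.81, and Fyn near 0.

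Among the ITAM chains and Fc receptors upstream of these kinases, 6 were higher in CD11c+ cells, namely Ms4a2, Tyrobp, Fcer1a, Fcgr4, Fcgr3 and Fcer1g. The T cell receptor chains Cd3d, Cd3e, Cd3g and Cd247, the genes used for the CD3 centring, had log2 fold changes of -0.58, -0.49, -0.69 and -1.19, and none passed. Fcgr3, Fcer1g and these chains were named after their values were seen. All 15 genes of this list were measured, of which 6 rose, 0 fell and 9 missed the threshold, and their median log2 fold change was 2.64. Over all genes 1.4% were called higher and 0.222% lower. Ms4a2, the beta chain of the high-affinity IgE receptor, had 9.03, 9.37 and 9.79 in CD11c+ cells of mice A, C and D, against 3.14, 2.91 and 3.08 in CD11c- cells (log2 fold change 6.35, adjusted p = 0.00554). Its CD11c- values were not above background, against which the difference was at least 11.5-fold. Fcer1a, the IgE-binding chain of the same receptor, was at least 2.44-fold higher, as its CD11c- mean too was not above background (measured log2 fold change 4.22, adjusted p = 0.0396). Tyrobp, the adaptor DAP12 with its own ITAM, had 11.30, 11.70 and 11.79 in CD11c+ cells, against 7.11, 6.32 and 7.21 in CD11c- cells (log2 fold change 4.72, adjusted p = 0.01). Likewise Fcgr4, an activating IgG receptor of myeloid cells, was at least 3.43-fold higher (measured log2 fold change 4.21, adjusted p = 0.0105). Fcer1a lost its call when mouse C (adjusted p = 0.105) or mouse D (adjusted p = 0.0639) was left out, under median centring (adjusted p = 0.0542) and under cyclic loess (adjusted p = 0.0582). With mouse A left out, Ms4a2, Fcer1a, Tyrobp and Fcgr4 had adjusted p-values of 0.0848 to 0.152.

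Downstream, 3 of 22 measured adaptors, scaffolds and substrates rose, 0 fell and 19 missed the threshold (1.4% of all genes rose and 0.222% fell). The median log2 fold change of the 22 was 0.0487. The 3 that rose are known from B cells and myeloid cells, but other adaptors also used in such cells missed the threshold. Skap2, Dapp1, Blnk, Sh3bp2 and Clnk, named after their values were seen, had log2 fold changes of 2.54, 0.91, 0.61, 0.14 and -0.41. Blnk, Sh3bp2 and Clnk were not above background in either fraction. Plcg2, the phospholipase C gamma that Syk and Btk activate in B cells and myeloid cells, had 9.11, 9.22 and 8.93 in CD11c+ cells of mice A, C and D, against 4.85, 4.72 and 5.15 in CD11c- cells. No CD11c- array was above background, and Plcg2 was at least 9.31-fold higher against that level (measured log2 fold change 4.18, adjusted p = 0.00654 from limma). Plcg1, its counterpart in T cells, which was named after its values were seen, differed by 0.12 on the log2 scale (adjusted p = 0.92) and was not above background in either fraction. Lat2, an adaptor like Lat that is used by B cells, mast cells and monocytes, was at least 6.69-fold higher, with a CD11c- mean not above background (measured log2 fold change 2.96, adjusted p = 0.0149). Pik3ap1, the adaptor BCAP that joins Syk and Btk to phosphoinositide 3-kinase, was higher by 1.38 on the log2 scale (adjusted p = 0.0318). With mouse A left out, Plcg2 (adjusted p = 0.119) and Lat2 (adjusted p = 0.0977) missed the threshold, as Lat2 also did with mouse C left out (adjusted p = 0.0616). Pik3ap1 lost its call without mouse A (adjusted p = 0.183), C (adjusted p = 0.158) or D (adjusted p = 0.0824), and likewise with no block (adjusted p = 0.193) or a random block (adjusted p = 0.128) for the mouse.

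Of 18 measured regulators of these kinases, 0 rose, 1 fell and 17 missed the threshold (1.4% of all genes rose and 0.222% fell). The median log2 fold change of the 18 was -0.27. The list joins the anchors of Csk, tyrosine and lipid phosphatases and ubiquitin ligases. The fractions did not overlap for 4 with the CD11c+ arrays on top and 2 with the CD11c- arrays on top (6.4% and 12.5% of all probe sets). Ptpre (log2 fold change 2.28, adjusted p = 0.074 from limma) and Dok3 (1.88, adjusted p = 0.0546) were among those 4. Both were named after their values were seen. Sit1, a membrane adaptor of T cells, had 7.04, 6.37 and 5.49 in CD11c+ cells of mice A, C and D, against 8.62, 8.13 and 6.86 in CD11c- cells. The groups overlapped, yet each mouse differed by a like amount, -1.59 in A, -1.76 in C and -1.37 in D. Sit1 passed the test as lower, at a log2 fold change of -1.57 (limma, adjusted p = 0.0314). Sit1 lost its call when any 1 of mice A (adjusted p = 0.195), C (adjusted p = 0.141) and D (adjusted p = 0.0603) was left out, and likewise with no block (adjusted p = 0.317) or a random block (adjusted p = 0.222) for the mouse.

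**Figure D3:**
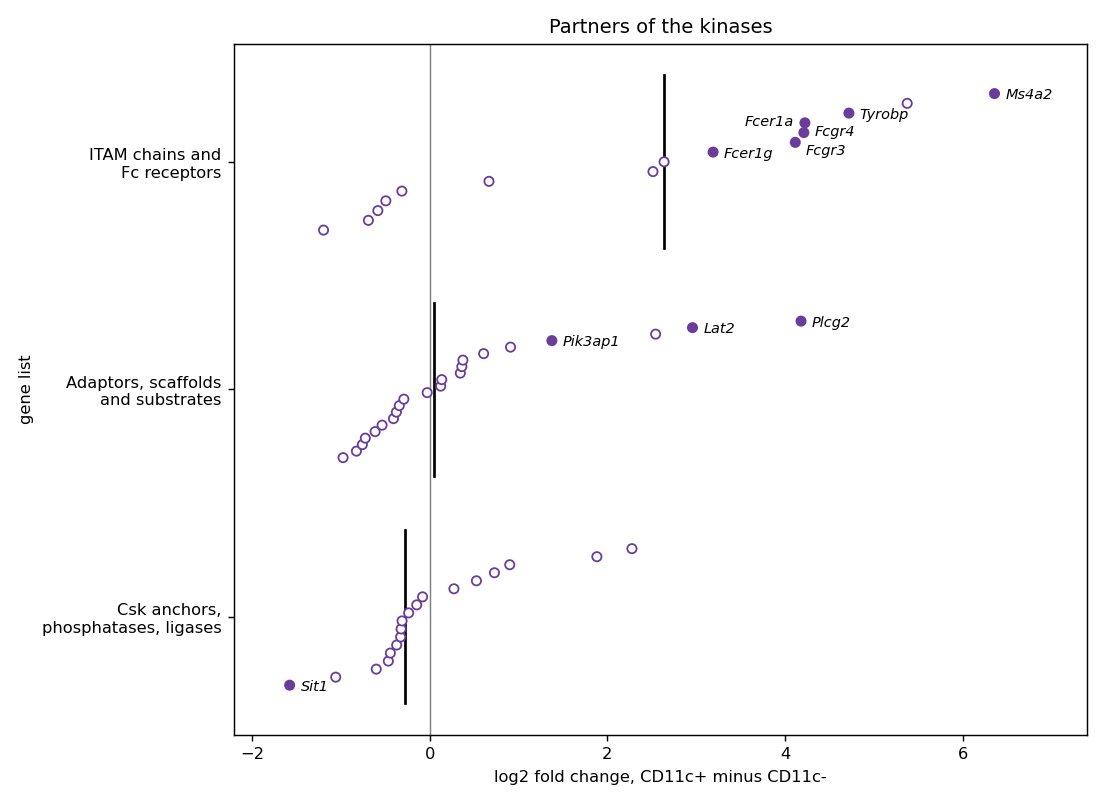
Log2 fold change between CD11c+ and CD11c- cells (horizontal axis) of each measured gene of 3 lists of partners (vertical axis, genes spread by rank), with filled, named symbols for genes past the threshold and a black line at the median of each list. The receptor list has a median of 2.64 and the other 2 lists medians of 0.0487 and -0.27.

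Markers of other blood cells moved with Fgr, Syk and their partners, and their part in these differences was not tested. For the counts below, 1.4% of all genes were called higher and 0.222% lower. Of 10 measured monocyte and macrophage markers 6 were higher and 0 lower, with a summed linear signal of 3943 to 5730 in CD11c+ and 512 to 669 in CD11c- samples. Of 8 basophil and mast cell markers 7 were higher and 0 lower (2737 to 4498 in CD11c+ and 130 to 145 in CD11c- samples), and none was above background in CD11c- cells. Of 8 B cell markers 1 was higher and 0 lower (594 to 1301 in CD11c+ and 324 to 574 in CD11c- samples). Of 6 NK cell markers 2 were higher and 1 lower (1358 to 1641 in CD11c+ and 794 to 898 in CD11c- samples). Of 5 conventional dendritic cell markers 1 was higher and 0 lower (712 to 1672 in CD11c+ and 125 to 134 in CD11c- samples), and of 4 plasmacytoid dendritic cell markers 2 were higher and 0 lower (335 to 470 in CD11c+ and 138 to 195 in CD11c- samples). NK and dendritic cells are also known to use Syk, Tyrobp and Fcer1g. All 11 measured T cell markers had means above background in CD11c- cells and 10 of them in CD11c+ cells, with 0 higher, 2 lower and sums of 7178 to 8794 in CD11c+ and 13241 to 14257 in CD11c- samples. All 10 monocyte and 8 basophil markers had values that did not overlap between the fractions, with the CD11c+ arrays on top (6.4% of all probe sets). The same held for 4 of 6 NK cell, 4 of 5 conventional dendritic, 2 of 4 plasmacytoid dendritic and 3 of 8 B cell markers. It also held for 1 neutrophil and 1 platelet marker. The CD11c- arrays were on top without overlap for 10 of 11 T cell markers, 1 NK cell and 1 conventional dendritic cell marker (12.5% of all probe sets). The receptor list shares Ms4a2 and Fcer1a with the basophil list and Fcgr1 with the monocyte list. It also shares Cd79a and Cd79b with the B cell list, and Cd3d, Cd3e, Cd3g and Cd247 with the T cell list. Of the neutrophil markers, 7 of 8 were not above background in either fraction. The neutrophil list had 1 marker higher, the list of 7 platelet markers 1 and that of 3 red cell markers 0, with 0 lower in each.

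**Figure D4:**
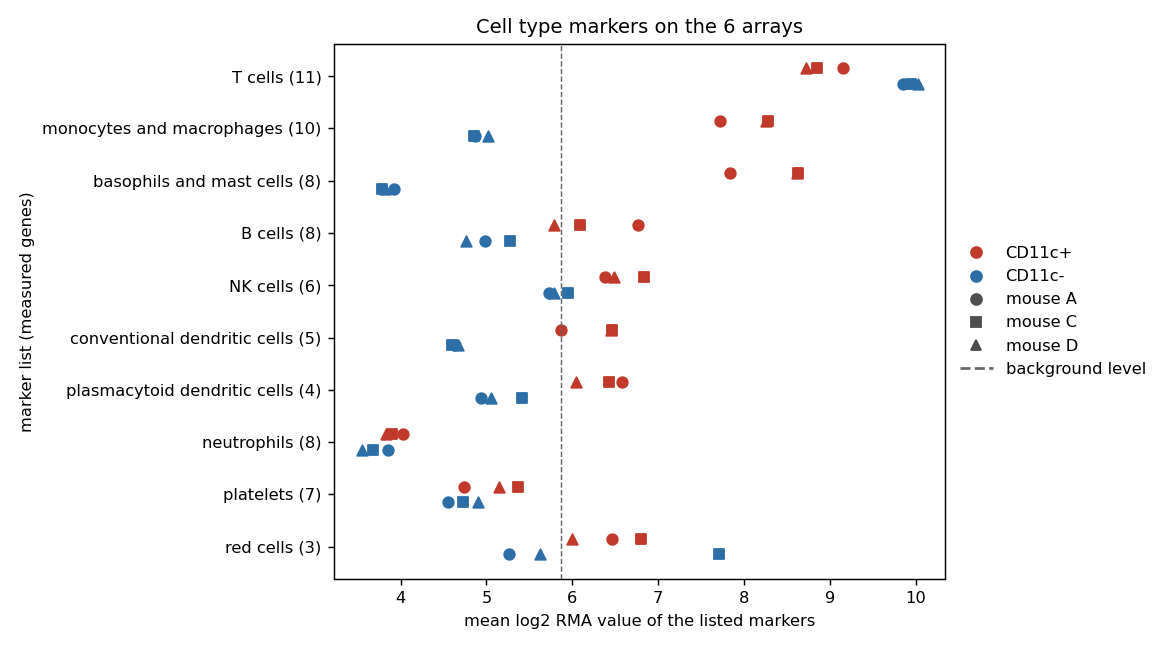
Mean log2 RMA value (horizontal axis) of the markers of 10 blood cell types (vertical axis, with the number of genes each) on each array, with colour for the fraction, symbol shape for the mouse and a dashed line marking the background, 5.87. Monocyte and basophil markers lie above the line in CD11c+ samples and below it in CD11c- samples, and T cell markers lie above it in all 6.

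The genes whose values were most like those of Fgr over the 6 arrays, among 6153 with a mean above background, were Ifitm2, an interferon-induced membrane protein (Pearson r = 0.998), Sgk3, a serine and threonine kinase (0.998), and H2-DMb2, a chain of the class II peptide loader (0.997). The annotation used here names H2-DMb2 alone for that probe set, whose log2 fold change was 4.46. The study lists a change of 4.46 under H2-DMb1 and H2-DMb2 together. The genes most like Txk were Cdc25b, a cell cycle phosphatase (0.996), Btla, an inhibitory receptor of lymphocytes (0.992), and Msi2, an RNA-binding protein (0.99). These are descriptions over arrays that share mice and 2 groups. A value over 0.95 was reached by 215 genes for Fgr and by 34 for Txk.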

How the data were processed

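The deposited values are log2 signals that the authors obtained with RMA, which corrects the background, normalizes between arrays and summarizes probes. The submitters' processing notes name RMA and limma, without versions. RMA makes the arrays' distributions alike, so a change in total RNA per cell cannot be seen, and cDNA amplified from few cells can add scatter at low signal. The number of arrays limits the precision. Array medians ran from 4.40 to 4.54. All 45141 probe sets, 104 controls among them, were fitted with limma 3.58.1 in R 4.3.3, with the mouse as a fixed block, 2 residual degrees of freedom, two-sided tests and Benjamini-Hochberg adjustment. The step was tested on simulated data. Alternatives were other treatments of the mouse block, leaving out each mouse, other scalings, a trended variance, a filter on dim probe sets and another threshold. For member genes, a fit to the mean of each gene's probe sets was run too. The labels give each pair of samples to 1 mouse. Paired deviations from group means correlated at 0.0758 to 0.122, against -0.086 to -0.0217 between mice. Deviations cancel out within each group, so positive values within mice bring negative ones between mice, which are no separate evidence. By the platform annotation, 28898 probe sets have 1 gene, 551 have several and 15692 none. Where a gene had several probe sets, the one brightest on average stood for it. As background level, 5.87 was used, under which lie 95% of the mean values of 32 genes known from other tissues. A bound ("at least") compares the bright mean with the dim arrays raised to that level. Members and lists were chosen with earlier results of these data known. Named were all members, the related kinases, the up to 4 largest changes past the threshold per list and direction, and the 3 genes most like Fgr and Txk. Promoter windows are from RefSeq, GRCm38.p6, and all 7 measured members matched. The study's methods give another day for the progestin than the labels.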

Additional observations from a re-analysis of the deposited data

How the results depend on the processing

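The member probe sets kept the sign of their log2 fold change under each alternative in which they were tested (9 of 10 among brighter probe sets only, without the dim one of Src) except CD3 centring, which sets the mean log2 fold change of the CD3 chains, -0.739, to 0 and raises all others by as much (Fyn 0.60 and 0.42, Txk 0.0303, the dim probe set of Src 0.40). Of the related kinases, this turned Yes1 (0.64), Frk (0.66) and Zap70 (0.0769), cyclic loess turned Frk (0.00906), and Matk ran from -0.26 to 0.63 when 1 mouse was left out. The number of member probe sets called higher was 2, or 3 without the mouse block, and 5 with a random mouse block, a trended variance, brighter probe sets only, CD3 centring or a threshold of 0.1. Leaving out 1 mouse gave 0 to 3. The number called lower was 0 throughout. Over all probe sets, 432 were called higher and 76 lower. These counts were 684 and 211 without the mouse block as the replicate pairing, 812 and 316 when the block was random, 684 and 207 when the variance was trended, 22412 and 232 with CD3 centring and 845 and 380 at 0.1. Cyclic loess left 41 lower and brighter probe sets only 140. Leaving out 1 mouse gave 0 to 348 higher and 0 to 44 lower. The cause of these shifts was not tested.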
